A study of Homo sapiens with 18 samples.

Results

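The promoters of V16D/H19 cells were sorted by the 2 histone marks they carried, H3K4me3 and H3K27me3. The window of a promoter reached 1 kb to either side of the start of a protein-coding gene, and it was said to carry a mark when at least 2 of the 3 V16D/H19 peak lists of that mark had a peak in it. Of 20037 protein-coding genes on the numbered chromosomes, X and Y, 19719 had a start and a strand and were classed. H3K4me3 alone was found at 11366 promoters (57.6%), H3K27me3 alone at 810 (4.11%), both marks at 1006 (5.1%) and neither mark at 6537 (33.2%). These 4 percentages are the background against which each group of genes is set.

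V16D is a castration-resistant prostate cancer line derived from LNCaP cells. V16D/CTL cells carried a control lentivector, and V16D/H19 cells carried a lentivector, with a CMV promoter, GFP and a puromycin marker, from which the long noncoding RNA H19 was overexpressed. Both groups came from the same line, were grown in RPMI1640 with fetal bovine serum and were transduced in biological triplicate, and the labels do not say whether single clones were picked. Each of the 6 cultures was immunoprecipitated for H3K4me3 and for H3K27me3, which gave 12 peak lists, 6 of them from V16D/H19. No list had a peak within 10 kb of the H19 gene (chromosome 11, 1995176 to 2001266, GRCh38), so the marks gave no check of the overexpression.

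H3K4me3 is trimethylation of lysine 4 of histone H3. It is laid down by the SET1 and MLL complexes and marks the starts of genes that are transcribed or ready to be, above all at CpG islands. H3K27me3 is trimethylation of lysine 27, laid down by EZH1 or EZH2 within the PRC2 complex, and is known for silencing developmental genes outside their own lineage. Promoters that carry both marks are called bivalent, a state described at developmental genes of stem cells and also seen in cancer cells. Peak lists cannot tell both marks on the same nucleosomes from a mixture of cells or of alleles, each with 1 mark.

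The sequence just before the start is shown for 1 promoter of each class, as an example and not as typical of it. The promoters below were taken by rank or by alphabet: the H3K4me3-only promoter with the widest mean peak, the promoter with both marks whose 2 folds ranked highest together, the H3K27me3-only promoter with the widest mean peak, and the first olfactory receptor in alphabetical order with neither mark. Each run is the 200 bases before the start, from RefSeq on GRCh38.p14, written 5′ to 3′ on the strand of the gene, with each CpG in capitals.
FOXA1 (H3K4me3 only, chr14:37595250-37595449, minus strand): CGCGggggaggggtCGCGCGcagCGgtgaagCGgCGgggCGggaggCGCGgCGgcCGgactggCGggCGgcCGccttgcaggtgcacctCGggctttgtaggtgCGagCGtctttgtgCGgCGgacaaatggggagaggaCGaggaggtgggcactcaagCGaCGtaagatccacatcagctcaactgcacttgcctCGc
KSR1 (both, chr17:27456248-27456447, plus strand): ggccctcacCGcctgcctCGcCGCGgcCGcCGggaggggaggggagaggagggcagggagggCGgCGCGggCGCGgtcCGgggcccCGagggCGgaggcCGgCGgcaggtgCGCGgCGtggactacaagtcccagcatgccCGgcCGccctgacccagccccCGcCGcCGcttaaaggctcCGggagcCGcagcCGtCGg
GATA3 (H3K27me3 only, chr10:8045133-8045332, plus strand): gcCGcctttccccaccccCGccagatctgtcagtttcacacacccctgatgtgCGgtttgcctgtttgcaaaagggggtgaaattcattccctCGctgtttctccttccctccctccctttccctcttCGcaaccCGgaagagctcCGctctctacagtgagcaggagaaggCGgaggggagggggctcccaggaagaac
OR10A2 (neither, chr11:6862857-6863056, plus strand): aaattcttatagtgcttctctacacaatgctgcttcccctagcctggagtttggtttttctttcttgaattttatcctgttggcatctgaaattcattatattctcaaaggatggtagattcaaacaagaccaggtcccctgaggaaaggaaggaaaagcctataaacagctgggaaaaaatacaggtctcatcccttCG
FOXA1, the forkhead factor that opens chromatin for the androgen receptor in luminal prostate cells, held 25 CpG in this stretch. KSR1, a scaffold of the RAF-MEK-ERK cascade, held 28 and was 81% G or C. GATA3, a zinc finger factor of luminal breast, T-cell and urothelial lineages, held 8. OR10A2, an odorant receptor of the nasal epithelium, held 1.

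The class counts repeated closely between replicates. Classed on its own lists, V16D/H19 replicate 1 had 11402 promoters with H3K4me3 only, replicate 2 had 11367 and replicate 3 had 11258. Both marks were found at 1002, 1096 and 994 promoters, H3K27me3 only at 794, 838 and 947, and neither at 6521, 6418 and 6520. The 3 replicates gave the same call at 96.6% of the H3K4me3-only and 92.7% of the neither promoters. They did so at 71.4% of the promoters with both marks and 64.1% of those with H3K27me3 only. The difference lay with H3K27me3. Of 12583 promoters with H3K4me3 in any list, 12164 (96.7%) had it in all 3, whereas 1393 of 2462 (56.6%) did for H3K27me3. At the edge of the rule, 208 promoters had H3K4me3 in exactly 2 lists and 211 in exactly 1, against 423 and 646 for H3K27me3.

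The H3K27me3 peaks were weak calls. Their median −log10 q was 1.76, 1.72 and 1.78 in the 3 lists, and 0.252%, 0.258% and 0.301% of the peaks reached 5. For H3K4me3 the medians were 79.1, 86.6 and 96.2, and 88.5%, 88.3% and 90.0% of the peaks reached 5. Any pair of H3K4me3 lists shared between 83.5% and 84.6% of the length that either covered, and any pair of H3K27me3 lists between 25.4% and 26.0%. With only peaks at a −log10 q of at least 5, H3K27me3 only fell to 21 promoters and both to 27. These 48 promoters included WNT3A and FGF3, secreted developmental ligands, the homeobox genes NKX1-1, NKX6-2 and UNCX, PRDM16, a factor of brown fat and blood stem cells, and INSM1, a neuroendocrine zinc finger factor. The genes in the last sentence were chosen after their values were seen.

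The 2 marks were spread over the genome in different ways. The H3K4me3 lists held 21934, 21886 and 20048 peaks, and the H3K27me3 lists 56239, 62031 and 62879. The median H3K4me3 peak was 1254, 1284 and 1329 bases wide, the median H3K27me3 peak 523, 528 and 532 bases. Of the H3K4me3 peaks, 54.3%, 54.1% and 58.2% lay within 1 kb of a protein-coding start, and of the H3K27me3 peaks 3.82%, 3.67% and 3.65%. Over 100 kb from any such start lay 9.84% ± 0.665 (SD, n = 3) of the H3K4me3 and 49.9% ± 0.776 (SD, n = 3) of the H3K27me3 peaks. The lists of the 2 marks did not overlap in any of these quantities (two-sided exact permutation test, p = 0.1, the smallest that 3 lists against 3 allow). That test ignores that the 2 lists of a replicate came from 1 culture. The exact sign-flip test over replicates, which keeps this pairing, gave p = 0.25 for each, the smallest it can give. Narrow and broad peak calling differ by design, and its part in the widths was not tested. With peaks at a −log10 q of at least 5 the order turned for number and width: H3K4me3 then had 18763 more peaks per list, and the difference in median width was −768 bases.

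In each replicate the marks shared little sequence, and most of what they shared lay at promoters. The shared length was 0.696, 0.811 and 0.617 Mb in V16D/H19 replicates 1 to 3. That was 2.25%, 2.59% and 2.14% of the H3K4me3 length and 1.65%, 1.71% and 1.27% of the H3K27me3 length. Promoters held 58.6%, 58.2% and 61.5% of the shared length. V16D/CTL shared 0.760, 0.864 and 0.858 Mb, and the ranges of the groups overlapped (exact permutation test, p = 0.2).

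Where both marks met at a promoter, they were laid out differently around the start. H3K4me3 covered most promoters just after the start: at 100 bases downstream, 77.1%, 79.7% and 74.7% of the 1006 promoters were under an H3K4me3 peak. H3K27me3 covered most of them further in, with 61.0%, 61.4% and 64.2% at 700 bases downstream and 40.9%, 45.1% and 42.7% at 100 bases upstream. At promoters with H3K27me3 only, its coverage was highest nearer the start, 56.3%, 60.5% and 63.2% at 300 bases downstream. The start base itself lay in H3K4me3 at 72.7%, 75.0% and 70.6% of the promoters with both marks, and in H3K27me3 at 42.0%, 45.9% and 45.1%. The peaks of the 2 marks overlapped by at least 1 base at 853 of the 1006 promoters (84.8%) in at least 2 replicates, and in no replicate at 59 (5.86%).

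**Figure D1:**
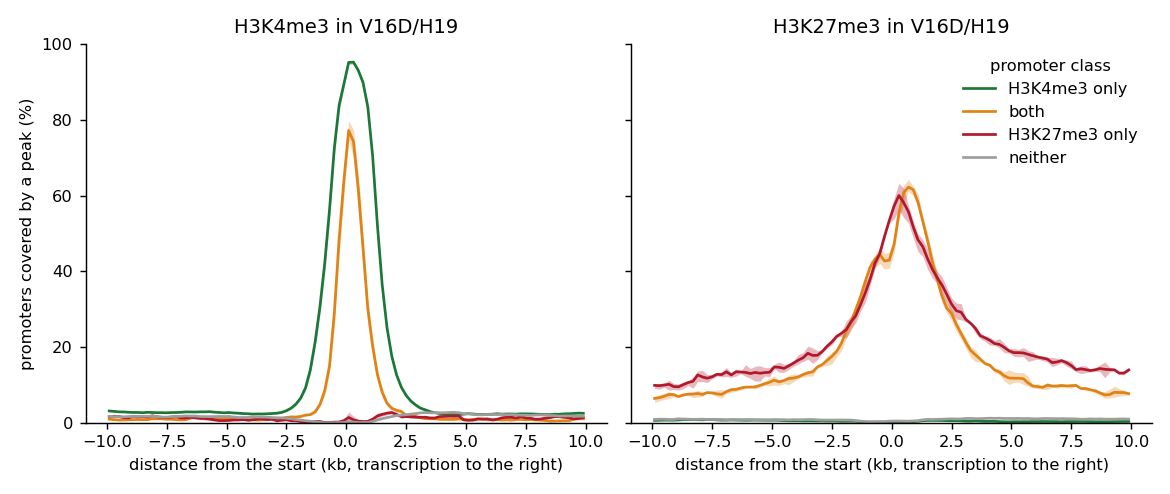
Share of V16D/H19 promoters of each class (percent, y axis) that lay under a peak, by distance from the start (kb, x axis, transcription to the right), for H3K4me3 on the left and H3K27me3 on the right. Lines are the mean of 3 replicates and bands their range. At promoters with both marks, H3K4me3 peaks at 77.2% just after the start, and H3K27me3 dips to 42.9% just before the start and reaches 62.2% at 700 bases downstream.

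H3K4me3 was narrower and lower where H3K27me3 was also present. The median H3K4me3 peak at promoters with both marks was 949, 1012 and 885 bases wide in the 3 libraries, against 2145, 2166 and 2067 bases at H3K4me3-only promoters. Its median fold over input was 13.9, 14.8 and 12.5, against 47.1, 51.3 and 47.1. Every library showed the same direction, with a mean difference of −1178 bases and −34.8 in fold (exact sign-flip test over 3 libraries, p = 0.25 for each, the smallest it can give). For H3K27me3 the classes were close. Its median width was 1449, 1601 and 1537 bases with both marks and 1344, 1411 and 1410 bases alone, and its median fold 3.96, 3.96 and 3.97 against 3.91, 3.84 and 3.88. That order did not hold: with a peak required in all 3 lists the difference between both marks and H3K27me3 alone was −210 bases in width and −0.0225 in fold. The folds of the 2 marks are not on the same scale, since the H3K4me3 fold is read at the summit and the H3K27me3 fold over the whole broad peak.

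**Figure D2:**
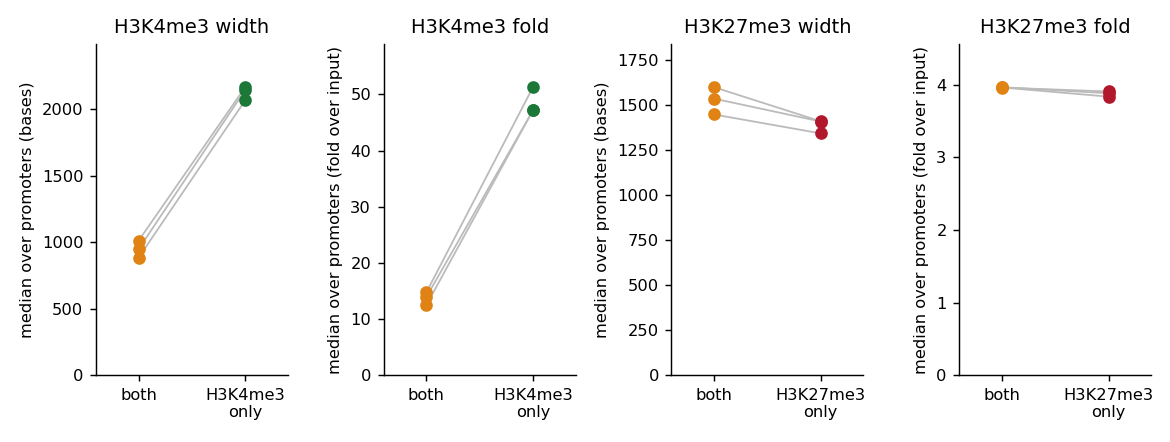
Median peak width (bases) and median fold over input (y axes, from 0) in V16D/H19 at promoters with both marks and at promoters with the single mark. Each point is 1 of 3 libraries and grey lines join the values of a library. H3K4me3 is narrower and lower with both marks in all 3 libraries, and H3K27me3 differs little.

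CpG content was alike with H3K4me3 only and with both marks, lowest with neither, and spread over both ends with H3K27me3 only. It was measured as the observed to expected CpG ratio from 250 bases before to 50 after the start, in the sequence of 19098 of the 19719 promoters (96.9%) matched by gene symbol. Its median was 0.82 (lower and upper quartiles 0.65 and 0.94) with H3K4me3 only and 0.80 (0.66 and 0.92) with both marks. It was 0.49 (0.23 and 0.75) with H3K27me3 only and 0.28 (0.15 and 0.53) with neither. For H3K27me3 only the median rose to 0.619 with a peak in all 3 lists and to 0.840 at a −log10 q of at least 5. A ratio of 0.6 or more was found at 79.3% of H3K4me3-only promoters, 81.1% of those with both marks, 41.3% of those with H3K27me3 only and 20.5% of those with neither. A ratio under 0.4 was found at 42.7% of the H3K27me3-only promoters, and at 30.0% of all promoters.

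**Figure D3:**
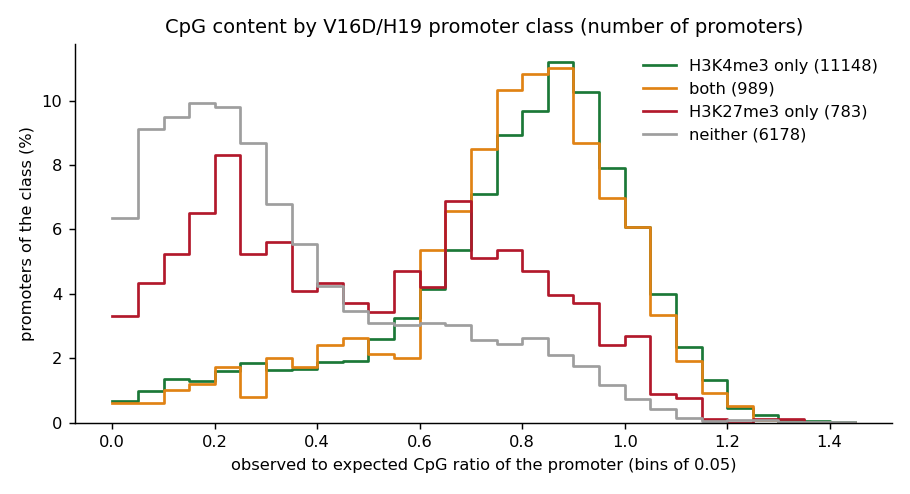
Share of the promoters of each V16D/H19 class (percent, y axis) by their observed to expected CpG ratio (x axis, bins of 0.05). Promoters with H3K4me3 only and with both marks lie mostly above 0.6, those with neither mostly below 0.4, and those with H3K27me3 only show a peak on each side.

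The 2 kinds of H3K27me3-only promoter differed in their peaks. The 323 with a CpG ratio of 0.6 or more had a median H3K27me3 width of 2055, 2036 and 2225 bases in replicates 1 to 3, and a median fold of 4.18, 4.15 and 4.19. The 334 with a ratio under 0.4 had a width of 883, 841 and 926 bases and a fold of 3.61, 3.59 and 3.62. The replicates did not overlap between the 2 kinds in either quantity. At promoters with both marks the same split gave widths of 1428, 1613 and 1544 bases at the higher ratio and 1376, 1549 and 1446 bases at the lower. Support differed too. Of all promoters with H3K27me3 in any list, 65.2% of those with a CpG ratio of 0.6 or more had it in all 3 lists, against 39.8% of those with a ratio under 0.4.

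Short sequence motifs were counted in the same stretches, on both strands. The ETS motif CCGGAAG occurred in 17.5% of H3K4me3-only promoters, 3.54% of those with both marks, 3.32% of those with H3K27me3 only and 3.67% of those with neither, against 11.7% of all promoters. The GC box GGGCGG was most frequent with both marks, at 71.8%, against 65.7% with H3K4me3 only, 43.8% with H3K27me3 only, 27.9% with neither and 52.9% of all. TATAAA occurred in 6.46% of H3K4me3-only promoters and 7.79% of those with both marks, and in 17.0% and 17.9% of those with H3K27me3 only and with neither, against 10.7% of all. The CCAAT box (36.8%, 27.5%, 33.1% and 36.0%), the cyclic AMP response element TGACGTCA (3.10%, 1.72%, 2.55% and 0.939%) and the E-box CAGCTG (14.9%, 17.9%, 16.6% and 19.8%) were also counted, in the order H3K4me3 only, both, H3K27me3 only and neither. Over all promoters these stood at 35.9%, 2.31% and 16.7%. The motifs were not compared at equal CpG content.

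Genes that every dividing cell uses carried H3K4me3 alone. All 20 cell cycle genes and all 10 housekeeping genes of the lists did, as did 82 of 87 cytosolic ribosomal proteins (94.3%), 74 of 76 mitochondrial ribosomal proteins, 34 of 36 subunits of respiratory complex I and 35 of 39 proteasome subunits. The remaining members of these lists had neither mark, and none had H3K27me3. The ribosomal exceptions included RPL3L, RPL39L, RPL26L1 and RPS4Y2, which are copies with restricted expression. EZH2, the catalytic subunit of PRC2, had H3K4me3 folds of 62.0, 42.7 and 74.3 and no H3K27me3 peak. In all, 10 of 12 PRC2 subunits, 11 of 12 H3K4 methylases and partners and all 8 demethylases of the 2 marks had H3K4me3 alone. The exceptions depended on the start: with the starts in the RefSeq promoter table, all 11 PRC2 subunits and all 9 methylases and partners listed there had it alone. AEBP2 and the proteasome subunit PSMA6 then moved from neither mark to H3K4me3 only. Zinc finger genes named ZNF, many of them repressors of retroelements, had H3K4me3 alone at 421 of 509 promoters (82.7%) and H3K27me3 at 7. The replication-dependent histones had H3K4me3 alone at 46 of 72 and no H3K27me3.

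Luminal prostate genes, which fit the labelled origin of the line, carried H3K4me3. Of 18 luminal prostate genes, 16 (88.9%) had H3K4me3 alone and the other 2, KLK4 and TRPM8, had neither mark. TMPRSS2, an androgen-regulated serine protease, had H3K4me3 folds of 62.5, 65.4 and 57.8 under peaks of 7579, 7327 and 7348 bases. KLK3, which encodes prostate-specific antigen, had folds of 32.9, 34.8 and 24.6, and its neighbour KLK2 folds of 11.9, 9.49 and 5.62. Keratin 8 (KRT8), of luminal epithelium, had folds of 76.5, 81.4 and 56.6, but neither mark when only its starts in the RefSeq promoter table were taken. Of the defining markers of other cell types, KRT5, KRT14, KRT15 and TP63 of basal cells and PTPRC, CD3E and CD14 of leukocytes had neither mark. Of 12 leukocyte genes 11 had neither mark, and CD8A had H3K4me3 in 2 of 3 lists. Among fibroblast markers COL1A1 had both marks, COL1A2 had H3K27me3 only and COL3A1, LUM and DCN had neither.

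**Figure D4:**
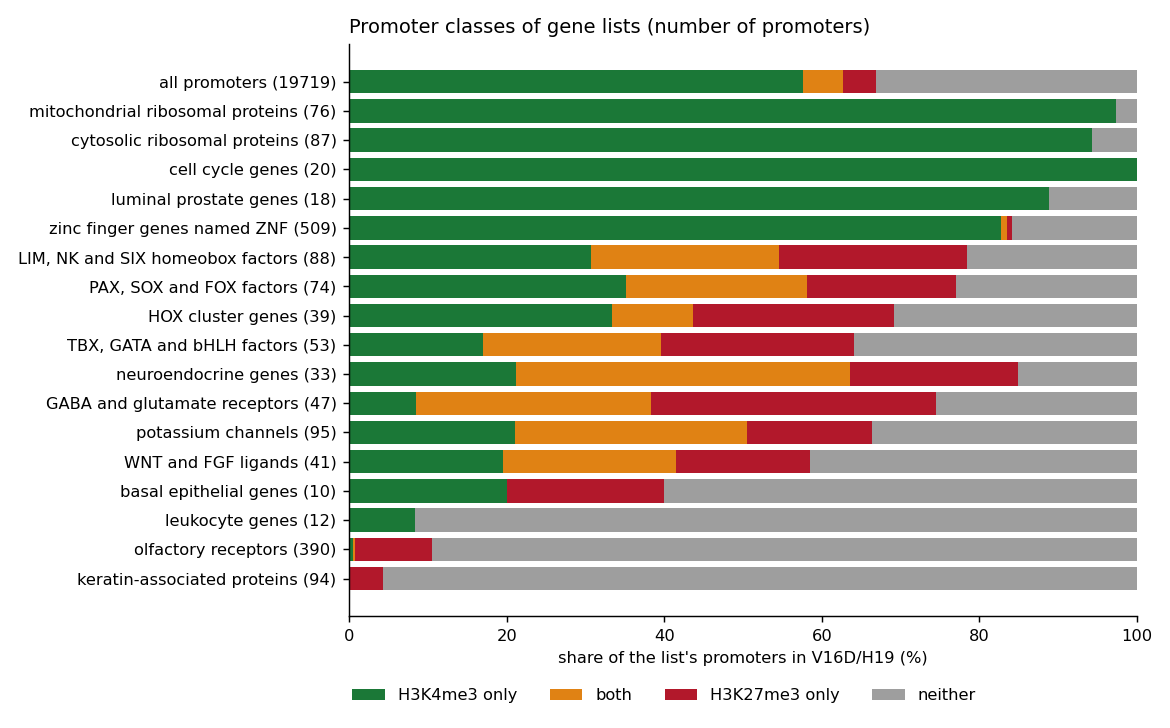
Share of promoters in each V16D/H19 class (percent, x axis) for all promoters and for 17 of the 32 gene lists, with the number of promoters in brackets. Lists of ribosomal, cell cycle and luminal genes are mostly H3K4me3 only, lists of developmental factors and neuronal receptors hold large shares of both and of H3K27me3 only, and olfactory receptors and keratin-associated proteins are mostly neither.

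The 10 H3K4me3-only promoters with the widest mean peaks included those of 3 lineage factors, FOXA1, HOXB13 and EHF. FOXA1 ranked highest, under peaks of 11642, 14237 and 11620 bases, which it shared with the opposite start of TTC6. HOXB13, a homeobox factor of the prostate, had peaks of 5500, 12102 and 5208 bases. In replicate 2 that peak was the one that also covered PRAC1 and PRAC2, small prostate-expressed genes next to it. EHF, an ETS factor of epithelia, had peaks of 13751, 8076 and 7143 bases, and ACSL3, an androgen-regulated fatty acid-CoA ligase, of 8522, 9201 and 6702 bases. KDM6A, which removes H3K27me3, had peaks of 6781, 8629 and 8369 bases. TNRC18 (12398, 12401 and 6365 bases) and PPP3CA, a catalytic subunit of calcineurin (7702, 8814 and 6830 bases), completed the 10 widest. At HOXB13, PRAC1, PRAC2, EHF and TNRC18 the widest replicate was over 1.5 times the narrowest.

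Lists of developmental transcription factors held larger shares of H3K27me3 than all promoters did. Of 88 homeobox factors outside the HOX clusters (LIM, NK and related families), 21 had H3K27me3 only (23.9%) and 21 had both marks, against 4.11% and 5.1% of all promoters, while 27 had H3K4me3 only and 19 neither. Of 74 PAX, SOX and FOX factors, 14 and 17 did, with 26 H3K4me3 only, of 53 TBX, GATA and bHLH factors 13 and 12, and of 15 POU factors 3 and 4. Close relatives could stand in different classes. FOXA1 had H3K4me3 alone, while FOXA2, of endoderm and liver, had H3K27me3 alone in 3 of 3 lists. FOXA3 was classed as H3K4me3 only, but in replicates 1 and 3 its peak was that of the neighbouring SYMPK start (folds 64.5 and 58.9). In replicate 2 it had a peak of 298 bases and fold 7.97, and in V16D/CTL it was classed as both. GATA6 had H3K4me3 alone, with folds of 36.98, 57.4 and 16.7. GATA3 had H3K27me3 alone, with folds of 4.92, 4.88 and 4.91 and the widest H3K27me3 peaks of the class by their mean, at 9774, 13117 and 22686 bases. GALNT9, at 12789, 14041 and 7273 bases, was wider in replicates 1 and 2. PAX6, of eye and brain, had H3K27me3 peaks of 5691, 6437 and 6278 bases and no H3K4me3. Others of the 10 widest in the class were the homeobox genes UNCX, LHX5 and LHX3, the neuronal bHLH factor NEUROD2, the cofactor VGLL2, PRDM13, PRICKLE1, of planar cell polarity, the glycosyltransferase GALNT9 and the uncharacterised LOC124909494. LHX5 and VGLL2 also had H3K4me3 in 1 of 3 lists. The widths of LHX3 (9101, 1479 and 14407 bases) and NEUROD2 (4777, 13462 and 13511 bases) differed widely between replicates.

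The HOX genes, which set position along the body axis, were spread over all 4 classes. Of 39, 13 had H3K4me3 only, 10 H3K27me3 only, 4 both and 12 neither. On GRCh38, 8 starts in a row on chromosome 2, from EVX2 (176083962) through HOXD13, HOXD12, HOXD11, HOXD10, HOXD9 and HOXD8 to HOXD4 (176151550), carried H3K27me3 over 67.6 kb, the longest such run by number of promoters. HOXD10 had H3K27me3 folds of 5.38, 4.89 and 4.15, HOXD9 of 4.82, 4.50 and 4.67 and HOXD4 of 3.62, 3.51 and 3.33, and none of these 3 had an H3K4me3 peak. HOXD13 had H3K27me3 in replicates 1 and 3 and not in replicate 2. HOXD8 alone in this run had both marks, with H3K4me3 folds of 7.34, 7.07 and 8.73. HOXB5 to HOXB9 formed a further run of 5 over 32.6 kb on chromosome 17, whereas HOXB13, at the far end of the same cluster, had H3K4me3 folds of 70.1, 72.3 and 46.7 and no H3K27me3. HOXA genes had no H3K27me3 by the 2-list rule.

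Runs of this kind were the exception. The 1816 promoters with H3K27me3 fell into 1418 runs of neighbouring starts, of which 1132 held a single promoter and 22 held at least 4, with 108 promoters in all. A further long run was at leukocyte receptor genes on chromosome 19 (LILRB5, LILRB2, LILRA5, LILRA4 and LAIR1, and then TTYH1 and LOC124904770). Another was at secretoglobin genes on chromosome 11 (SCGB1D1, SCGB2A1, SCGB1D2, SCGB2A2, SCGB1D4 and then ASRGL1). The nearest other start was in the same class for 21.6% of H3K27me3-only promoters, against 4.11% of all promoters, and for 12.9% of those with both marks, against 5.1%. It lay at a median of 84.4 kb from promoters with both marks, 38.0 kb from those with H3K27me3 only, 27.4 kb from those with neither and 21.4 kb from those with H3K4me3 only. A start on the opposite strand lay within 1 kb for 21.4% of H3K4me3-only promoters and 5.07%, 2.22% and 1.96% of those with both, H3K27me3 only and neither. Such pairs share a window and so, often, a peak and a class.

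GABA and glutamate receptors, which carry fast signals between neurons, often carried H3K27me3. Of 47 GABA and glutamate receptor subunits, 17 had H3K27me3 only (36.2%), 14 both marks (29.8%), 12 neither and 4 H3K4me3 only. Within 500 bases of the start neither was the most frequent, at 16, with 14 H3K27me3 only, 9 both and 8 H3K4me3 only. With peaks at a −log10 q of at least 5, no member of this list had H3K27me3. The NMDA receptor subunit GRIN2A had H3K27me3 folds of 4.48, 4.72 and 4.35 and no H3K4me3, and the metabotropic receptor GRM7 had H3K27me3 folds of 3.81, 3.47 and 3.82 beside H3K4me3 folds of 6.44, 14.5 and 4.79. Of 95 potassium channel subunits, 28 had both marks (29.5%), 15 H3K27me3 only, 20 H3K4me3 only and 32 neither. Of 41 WNT and FGF ligands, 9 had both marks and 7 H3K27me3 only. The clustered protocadherins, with 24 of 53 H3K4me3 only, 18 neither, 6 both and 5 H3K27me3 only, lay closer to the background.

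Neuroendocrine genes were spread over the classes, with both marks the most frequent. Of 33, 14 had both marks (42.4%), 7 H3K4me3 only, 7 H3K27me3 only and 5 neither. Within 500 bases of the start the order turned, with 11 H3K4me3 only and 9 both. Many of these genes were named by the study from the same libraries, so their share is not independent of it. CHGA, which encodes the granule protein chromogranin A, had H3K27me3 alone, with folds of 3.10, 4.41 and 3.62, and the factor NEUROD1 had H3K27me3 folds of 3.68, 3.98 and 3.25. SYP (synaptophysin) had H3K4me3 alone, with low folds of 7.98, 13.6 and 6.80. The neural factors POU3F2 and SOX2 had both marks in all 3 lists. POU3F2 had H3K4me3 folds of 21.1, 22.5 and 7.39 and H3K27me3 folds of 4.75, 4.73 and 4.67. For SOX2 the H3K4me3 folds were 23.2, 21.6 and 16.9, and the H3K27me3 folds 3.22, 3.67 and 3.69. REST, the repressor of neuronal genes, had H3K4me3 folds of 55.5, 46.5 and 42.6 and no H3K27me3.

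The promoters with both marks whose folds ranked highest for both had mixed functions. KSR1 had H3K4me3 folds of 37.7, 41.7 and 43.1 beside H3K27me3 folds of 4.45, 5.42 and 5.37. BMI1, a subunit of the other Polycomb complex, PRC1, had H3K4me3 folds of 44.04, 65.9 and 53.9 and H3K27me3 folds of 4.77, 4.98 and 4.39. WRN, a RecQ helicase, and PURG share a pair of opposite starts, with H3K4me3 folds of 57.0, 47.3 and 62.9. KALRN, FAM78B, NUAK1 and WRAP73 were also among the 10. Among cell cycle inhibitors and tumour suppressors, 7 of 11 had H3K4me3 alone, and CDKN1C, an imprinted cell cycle inhibitor, had both marks, with H3K4me3 folds of 33.7, 36.5 and 11.5 and H3K27me3 folds of 4.50, 3.78 and 4.23.

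Genes of other differentiated tissues mostly had neither mark, with H3K27me3 at a minority. Of 390 olfactory receptors 349 had neither (89.5%), and 38 had H3K27me3 only (9.74%, against 4.11% of all promoters). Both marks were found at 1 (0.256%, against 5.1%) and H3K4me3 only at 2 (0.513%, against 57.6%). With H3K4me3 this rare, the H3K27me3-only share does not by itself show more H3K27me3 than at all promoters. The 38 fell to 14 with a peak in all 3 lists and to 18 within 500 bases of the start. All promoters with H3K27me3 only then numbered 675 and 732. Of 94 keratin-associated proteins of the hair shaft 90 had neither, as did 38 of 39 beta-defensins, 25 of 27 taste receptors and 14 of 17 type I interferons. Among the 10 pluripotency genes 7 had neither mark, LIN28A had H3K27me3 only, SOX2 both and KLF4 H3K4me3 only. Of 10 basal epithelial genes 6 had neither, ITGB4 and DST had H3K4me3 only and NGFR and CAV1 had H3K27me3 only. Among 16 mesenchymal genes CDH11, TWIST1, CDH2 and COL1A1 had both marks, and ZEB2 and COL1A2 had H3K27me3 only. By chromosome, neither mark was most frequent on Y (82.2%), 21 (49.2%) and X (48.6%), and both marks on 8 (9.25%) and 3 (8.03%) and least frequent on X (1.30%) among chromosomes with any.

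Against V16D/CTL, most promoters kept their class: 18884 of 19719 were classed alike in the 2 groups. V16D/CTL replicates 1 to 3 had 11241, 11112 and 11123 promoters with H3K4me3 only, all below the lowest V16D/H19 replicate. They had 981, 1082 and 1106 with H3K27me3 only, all above the highest V16D/H19 replicate. The mean difference, V16D/H19 minus V16D/CTL, was 184 H3K4me3-only and −197 H3K27me3-only promoters (two-sided exact permutation test, p = 0.1 for each, the smallest it can give). Both marks were found at 1027, 1110 and 1149 V16D/CTL promoters and neither at 6470, 6415 and 6341, and the groups overlapped in both (p = 0.2 for each, exact permutation test). Per library, 1796, 1934 and 1941 promoters had H3K27me3 in V16D/H19 and 2008, 2192 and 2255 in V16D/CTL (p = 0.1, exact permutation test). H3K4me3, with or without H3K27me3, was at 12404, 12463 and 12252 promoters in V16D/H19 and 12268, 12222 and 12272 in V16D/CTL. For H3K4me3 counted in this way the groups overlapped (p = 0.3, exact permutation test). The V16D/CTL H3K27me3 lists covered more of the genome as a whole, 45.1, 58.8 and 62.2 Mb against 42.3, 47.5 and 48.4 Mb. With lists of equal length the mean difference in promoters with H3K27me3 was −210 in place of −261. The V16D/CTL H3K27me3 peaks were also stronger calls, with a median −log10 q of 1.97, 1.85 and 1.85, against 1.76, 1.72 and 1.78. Equal list length does not even out this strength, and its part in the differences was not tested.

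**Figure D5:**
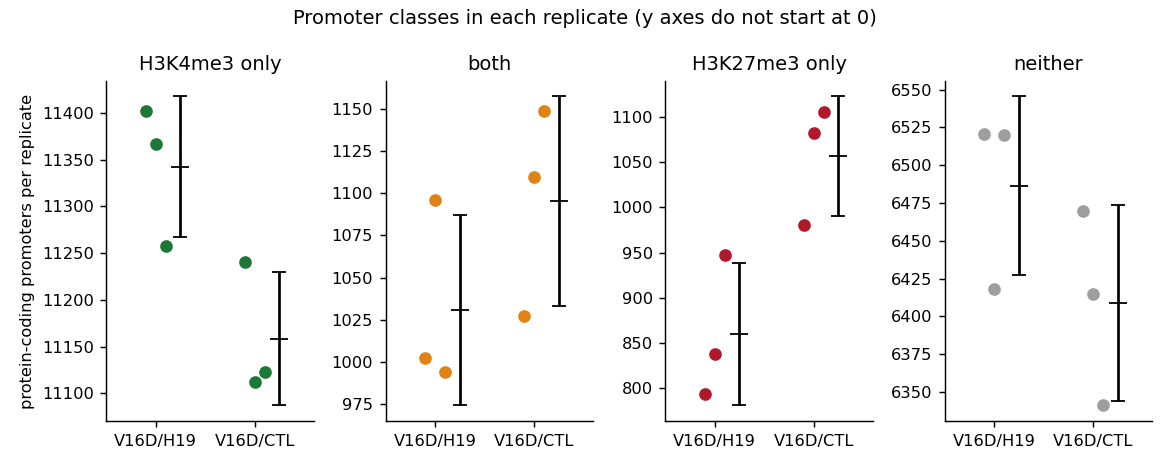
Number of protein-coding promoters in each class (y axes, which do not start at 0), for the 3 replicates of V16D/H19 and of V16D/CTL. Points are replicates, and the black bar is their mean ± SD. The groups do not overlap for H3K4me3 only and H3K27me3 only, and overlap for both and neither.

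The promoters that moved between classes did so mostly by a change of 1 mark. From V16D/CTL to V16D/H19, 213 promoters went from both to H3K4me3 only and 48 the other way, 200 from H3K27me3 only to neither and 94 the other way, and, by H3K4me3, 116 from H3K27me3 only to both and 12 the other way. A further 77 went from neither to H3K4me3 only and 67 the other way. No promoter went from H3K4me3 only to H3K27me3 only, and 4 went from H3K27me3 only to H3K4me3 only. Many moves rested on 1 list: of the 213, 70 had H3K27me3 in 2 lists of one group and 1 of the other, and 36 in 3 and 0.

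A mark in all 3 libraries of a group and none of the other was rare. H3K4me3 parted the groups in this way at 42 promoters in favour of V16D/H19 (0.213% of those tested) and 5 in favour of V16D/CTL (0.0254%). H3K27me3 did so at 11 in favour of V16D/H19 (0.0558%) and 57 in favour of V16D/CTL (0.289%). Of the 42, 28 had H3K27me3 only in V16D/CTL and both marks in V16D/H19, and 14 had neither mark and then H3K4me3 only. Of the 57, 36 went from both marks to H3K4me3 only and 21 from H3K27me3 only to neither. With lists of equal length these counts were 41, 12, 8 and 42, in the order given.

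The 10 promoters with the highest folds among those with H3K4me3 in V16D/H19 alone were IL32, SMOC1, ACHE, ATP2B2, FGF5, KCNB2, MGAT3, PLCH2, WNT6 and CACNA1A. IL32, a cytokine gene, had H3K4me3 folds of 7.80, 10.9 and 7.09 in V16D/H19 and no H3K27me3. ACHE, which encodes acetylcholinesterase, had H3K4me3 folds of 9.30, 8.34 and 6.50 beside H3K27me3 in all 6 libraries. The same pattern was seen at the ligand genes FGF5 (6.85, 9.76 and 6.80) and WNT6 (11.1, 7.07 and 3.97), and at the calcium pump gene ATP2B2 (6.98, 9.32 and 7.25). It was also seen at the channel genes CACNA1A (5.44, 8.51 and 7.93) and KCNB2 (6.92, 7.95 and 8.50), and at SMOC1 and MGAT3. CDH2, which encodes N-cadherin, had H3K4me3 folds of 9.3, 3.4 and 5.1 in V16D/H19, no H3K4me3 in V16D/CTL and H3K27me3 in all 6 libraries, and was chosen after its values were seen. PLCH2, a phospholipase C gene, had H3K4me3 folds of 5.3, 12.69 and 4.25 in V16D/H19. The 5 promoters with H3K4me3 in V16D/CTL alone were SCARF2, MMRN2, SLITRK6, CCDC80 and VPS37D.

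Of the 11 promoters with H3K27me3 in V16D/H19 alone, the highest by fold were SLC22A4 (3.78, 3.02 and 4.17), an organic cation transporter, ATP13A5 (3.83, 3.19 and 3.78) and PDE1C (3.74, 3.09 and 3.67). MSI1, a neural RNA-binding protein, had H3K27me3 folds of 3.42, 3.45 and 3.6 in V16D/H19 beside H3K4me3 folds of 46.5, 70.5 and 38.2. With peaks at a −log10 q of at least 5, none of the 11 was left, while 66 promoters had H3K27me3 in every V16D/CTL and no V16D/H19 library. At that threshold the V16D/H19 H3K27me3 lists held 142, 160 and 189 peaks in all, and the V16D/CTL lists 510, 632 and 699. The part of this difference in list strength in the promoter counts was not tested. Without that threshold, those with H3K27me3 in V16D/CTL alone included CD1D, a lipid antigen-presenting molecule, ADGRG2, CHST2, BNC2 and the opposite starts of SYMPK and FOXA3, all of which kept H3K4me3 in V16D/H19, and C1QTNF7 and VSX1, which then had neither mark.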

How the data were processed

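H3K4me3 and H3K27me3 were profiled by chromatin immunoprecipitation sequencing in 3 V16D/H19 and 3 V16D/CTL cultures, grouped by sample title. Peaks were called by the authors library by library (MACS2, with the matching input as control), narrow for H3K4me3 and broad for H3K27me3, on hg38 per the labels; versions and the aligner are not given in the sources used here. For every peak the 12 deposited lists give its fold over input, which is a linear ratio, the −log10 of its p and q values, and a score (deposited minimum −log10 q 1.30 for H3K4me3 and 1.00 for H3K27me3). The 2 deposited tables of the authors' own comparison (group concentrations, fold, p and FDR) were not used. Library depth was not used here, which leaves the counting error unknown, and a mark can be present where no peak was called.

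Starts were the 5′ ends of RefSeq genes (GRCh38.p14), 1 per gene, with the strand from RefSeq promoter rows for 15842 genes and from GENCODE by symbol for 3877. Sequence features came from GENCODE starts on GRCh37 by symbol, with no coordinates joined, since the RefSeq promoter table held an exact match for 70.1% of promoters. The fold at a promoter was the largest among the peaks that overlapped its window, and the width was the largest among them. The 2 need not come from the same peak. Values per library were compared with two-sided exact permutation tests over the 20 assignments of 3 against 3 (smallest p 0.1) and with exact sign-flip tests over 3 libraries (smallest p 0.25). The classing was tested on simulated lists. Analyses used Python 3.11.15, numpy 2.4.6, pandas 2.3.3 and matplotlib 3.10.9. Named promoters were the members of 32 gene lists and the 10 that ranked highest in each class by peak width (H3K4me3 only, H3K27me3 only), by the lower rank of both folds (both), or by mean fold (promoters that parted the groups). Some of these are not reported here. Members and lists were chosen with earlier results of these data known. Alternatives were the number of lists, the window, a stricter q, lists of equal length, covered bases, lone promoters, left-out replicates and replicate blocks.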

Additional observations from a re-analysis of the deposited data

How the results depend on the processing

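The counts of the 4 classes moved by over 1.5 times under 1 alternative: with peaks at a −log10 q of at least 5, H3K27me3 only fell to 21 promoters and both to 27. At that threshold H3K4me3 minus H3K27me3 turned to 18763 peaks, −768 bases of median width, 29.2 Mb of covered length and 2.05 percentage points for peaks 10 to 100 kb from a start, and the both minus H3K27me3-only difference turned to −1122 bases of H3K27me3 width and −0.0864 of fold. With a peak in all 3 lists these last 2 were −210 bases and −0.0225, and without a V16D/H19 replicate they ranged from −175 to 43.5 bases and from −0.0164 to 0.0587. The difference between groups in the share of H3K27me3 length that overlapped H3K4me3, 0.0310 percentage points, turned to −0.0381 with lists of equal length and ranged from −0.0516 to 0.165 without a replicate. The cause of these turns was not tested.

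Median CpG ratios were 0.821 (H3K4me3 only), 0.619 (H3K27me3 only) and 0.283 (neither) with a peak in all 3 lists; 0.822, 0.560 and 0.283 within 500 bases; 0.840 (H3K27me3 only), 0.855 (both) and 0.297 (neither) at the stricter q; and 0.815 (H3K4me3 only) and 0.277 (neither) for promoters with no other start within 2 kb. On the RefSeq starts they were 0.86, 0.52, 0.83 and 0.27 for H3K4me3 only, H3K27me3 only, both and neither, over under 80% of each class. H3K27me3 in every V16D/H19 and no V16D/CTL library was found at 6 promoters within 500 bases and 0 at the stricter q, and the reverse at 37 within 500 bases. H3K4me3 in every V16D/CTL and no V16D/H19 library was found at 14 promoters at the stricter q and 12 with lists of equal length. All 32 gene lists kept their most frequent class except 2 with a peak in all 3 lists, 3 within 500 bases, 4 at the stricter q and 1 for lone promoters.

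The sources used here do not say whether the replicate numbers pair the cultures. Deviations of same-numbered V16D/H19 and V16D/CTL libraries correlated between −0.0483 and 0.0223 over promoters, and those of different-numbered libraries between −0.0357 and 0.0308. For H3K4me3 the same-numbered pairs stood at 0.0223, 0.0191 and 0.0192, and the different-numbered pairs between −0.0177 and −0.00151. Values this small cannot settle whether the cultures were paired. With the replicate block, the sign-flip test gave p = 0.25 where the permutation test gave 0.1, as for the difference of −197 H3K27me3-only promoters; each is the smallest p its test can give, so neither test could pass 0.05. An alternative chosen after seeing the data took any RefSeq start of a gene in place of its 5′ end: of 15842 genes, 984 changed class, 502 of them from neither to H3K4me3 only and 136 from H3K4me3 only to neither. Peak lists depend on depth, which was not used here. The p-values measure the spread between these 3 cultures per group, or between the lists of the 3 V16D/H19 cultures where marks or promoter classes were compared.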
